A study of Mus musculus with 24 samples.

Results

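The lungs of sham-irradiated mice were sorted into an epithelial and a mesenchymal fraction, and the RNA of the sorted fractions was compared here. All libraries labelled sham were taken, 4 epithelial and 4 mesenchymal, which makes 8 of the 24 libraries of the series. The mice were female Balb/c mice, 8 weeks old, that had received sham irradiation and a control IgG antibody, with no irradiation and no depleting antibody, and their lungs were taken 7 days later. Lungs were minced and digested with Liberase and DNase I, red blood cells were lysed, and cells were stained for CD45 (leukocytes), CD31 (endothelium), Ter119 (erythroid cells) and EpCAM (epithelium). Cells negative for the first 3 antigens were sorted by FACS into EpCAM-positive cells, called epithelial, and EpCAM-negative cells, called mesenchymal. The cell type entries of the labels give CD45, CD31 and Ter119 as the excluded antigens, whereas the protocol text names CD45 in the place of CD31. The series' design gives 4 mice for each treatment, and the labels do not say which mouse a library came from or whether epithelial and mesenchymal libraries of the same number share a mouse.

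The alveolus of the mouse lung is lined by thin alveolar type 1 cells, across which gas is exchanged, and by cuboidal alveolar type 2 cells, which make surfactant and serve as the progenitors of the alveolar epithelium. The conducting airways are lined mainly by secretory club cells and ciliated cells. Beneath the epithelium lie fibroblasts of several kinds, smooth muscle cells, pericytes and, at the lung surface, mesothelial cells, and these cells deposit the collagen and elastin of the lung. Signals pass between the layers: growth factors made by one layer often act on receptors held by the other.

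The libraries held between 9776113 and 11710964 reads in the epithelial fraction and between 8951233 and 11408083 in the mesenchymal fraction, with 22820 to 24143 genes above 0 in a library. Levels are given as CPM, that is, reads of a gene in 1000000 reads of that library. A count of 0 in a library allows a level of up to 0.256 to 0.335 CPM (3 reads), a limit that covers counting error only, since no molecular identifiers are named in the labels. A difference is the epithelial minus the mesenchymal mean of log2(CPM + 1) with its standard error, so that positive values are higher in the epithelial fraction, and the added 1 shrinks the differences of genes of low level. The fractions stood far apart. The first principal component held 94.0% of the variance and separated them, and Pearson r across the 16789 genes tested was 0.986 to 0.993 between libraries of a fraction and 0.719 to 0.741 between fractions (across genes, which are not independent replicates). With limma, 12002 of the 16789 genes (71.5%) differed at an adjusted p under 0.05. Of all genes tested, 34.2% were higher in the epithelial and 37.3% in the mesenchymal fraction, with a median difference of -0.03. At least 2-fold higher on this scale were 15.4% in the epithelial and 18.9% in the mesenchymal fraction, and at least 16-fold higher 2.03% (340 genes) and 1.45% (243 genes). Because so many genes passed, the counts of the lists below are to be read against these shares. The deposited tables, 1 per fraction, were scaled separately by the authors. Dividing a column by its own sum removes that factor, but any step of library preparation that went with the fraction cannot be told apart from it. In sorted bulk samples fewer cells of a type and less RNA per cell cannot be told apart either.

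The 6 genes used to check the sort were divided between the fractions as their cell types are. Epcam (ENSMUSG00000045394, GRCm38 chromosome 17, start 87635979, end 87651129), which codes for the antigen used to split the cells, stood at 110.4, 107, 110.2 and 111 CPM in the epithelial libraries and at 2.01, 1.21, 0.111 and 0.438 CPM in the mesenchymal libraries. The lowest epithelial library was thus far above the highest mesenchymal one, and the difference was 5.94 ± 0.27 (limma, adjusted p = 3.22e-08). Cdh1 (ENSMUSG00000000303, chromosome 8, start 106603351, end 106670246), the cadherin of epithelial adherens junctions, stood at 834, 834, 835 and 819 CPM against 8.38, 10.4, 8.19 and 5.17 CPM (6.56 ± 0.16). Sftpc (ENSMUSG00000022097, chromosome 14, start 70520949, end 70524081), the surfactant protein of alveolar type 2 cells, reached 38257, 36597, 35015 and 34547 CPM in the epithelial libraries. It was not absent from the mesenchymal libraries, where it stood at 232, 324, 198 and 140.4 CPM, with a difference of 7.39 ± 0.23.

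The 3 mesenchymal markers showed the reverse, with a smaller distance between the fractions. Col1a1 (ENSMUSG00000001506, chromosome 11, start 94936224, end 94953042), a chain of type I collagen, stood at 3279.7, 3662, 3937 and 4381 CPM in the mesenchymal libraries and at 115, 127, 111 and 105 CPM in the epithelial libraries (-5.04 ± 0.09). Col1a2 (ENSMUSG00000029661, chromosome 6, start 4504814, end 4541544), the other chain, differed by -4.93 ± 0.07, from 3967 ± 394 CPM (SD, n = 4) in the mesenchymal to 129 ± 8.51 CPM in the epithelial fraction. Pdgfra (ENSMUSG00000029231, chromosome 5, start 75152292, end 75198215), the receptor for PDGF-A that marks most lung fibroblasts, differed by -4.27 ± 0.09, with 2377, 2171, 2580.5 and 2843 CPM against 117, 145, 131 and 119 CPM. For none of the 6 markers did the libraries of the fractions overlap. This also held for 66.6% of all genes tested (31.8% with the epithelial and 34.8% with the mesenchymal libraries higher), and the labels of all 8 libraries matched their markers.

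**Figure D1:**
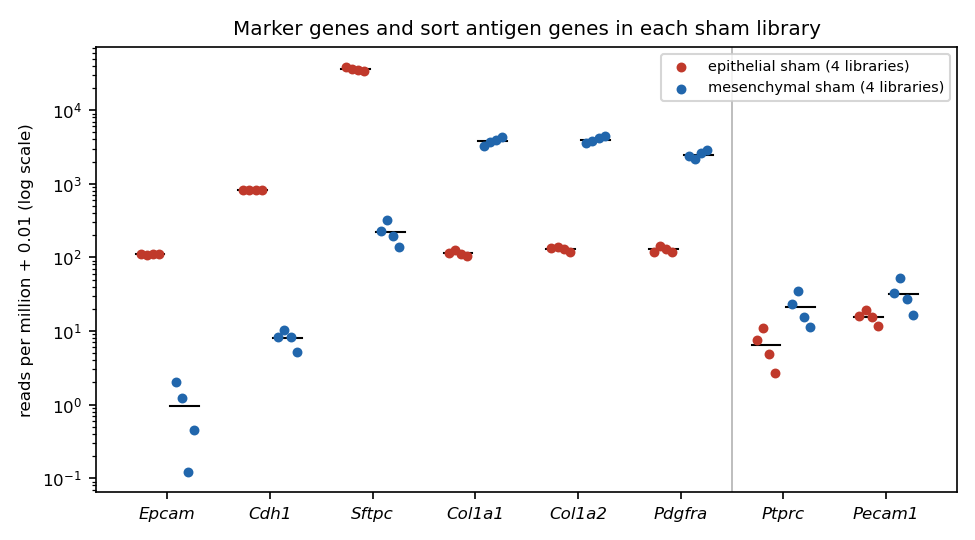
CPM (log axis, with 0.01 added) of the 6 markers and of 2 genes for antigens the sort excluded, as 1 point per sham library and a line at the mean of 4 libraries. Epcam, Cdh1 and Sftpc are higher in every epithelial library, Col1a1, Col1a2 and Pdgfra in every mesenchymal library, while Ptprc stays under 36 CPM and Pecam1 under 53 CPM in all 8 libraries.

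Among 20 genes found in most epithelia, all 20 were higher in the epithelial fraction, 15 of them at least 16-fold. Krt8 and Krt18, keratins of simple epithelia, differed by 5.74 ± 0.13 and 5.70 ± 0.11, and Cldn3, a tight junction claudin, by 6.35 ± 0.11. Esrp1 and Esrp2, splicing factors that maintain epithelial isoforms, differed by 5.6 ± 0.15 and 4.54 ± 0.13. Elf3 and Ehf, transcription factors of the ETS family, stood at 96.9 and 143 CPM in the epithelial fraction and at 0.512 and 0.933 CPM in the mesenchymal fraction. Among 20 genes found in most mesenchyme, all 20 were higher in the mesenchymal fraction, 13 of them at least 16-fold. The 20 include Zeb1 (-3.82, below 16-fold) and Zeb2 (-4.09). Both are transcription factors known to repress Cdh1 and other epithelial genes by binding E-boxes with the letters CAGGTG.

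The promoters of these genes were read for 8 motifs on both strands, of which CAGGTG is described here. RefSeq (GRCm38.p6) gave a window of 250 bases before to 50 bases after the start for 12 of the 20 epithelial genes. Cdh1 was not among these 12, so its promoter was not read. The letters CAGGTG were present on either strand in 11 of these 12, against 22.6% of the 27025 genes with a window. The exception was Spint1. Among the mesenchymal genes 1 of 12 windows held them, among the interstitial matrix genes 3 of 23, among the smooth muscle genes 2 of 12, among the alveolar type 2 genes 3 of 14, and among the cell junction genes, which share members with the epithelial list, 11 of 18. The other motifs were AACCNGTT, known from grainyhead-like factors, the TATA box with the letters TATAAA, the CCAAT box, CTCAAG, which NKX2-1 is known to bind, TGTTTAC of forkhead factors, CCGGAA of ETS factors and the CArG box of serum response factor, which can hold the letters TATAAA or CCAAT within it. The motif singled out was chosen after the counts were seen, and a match is a description of letters, not of binding. The 250 bases before the start are shown for Epcam, the sort gene, for Krt8, a keratin, and for Elf3, a transcription factor, with each match in capitals.
Epcam (GRCm38.p6, chr17:87635729-87635978, plus strand): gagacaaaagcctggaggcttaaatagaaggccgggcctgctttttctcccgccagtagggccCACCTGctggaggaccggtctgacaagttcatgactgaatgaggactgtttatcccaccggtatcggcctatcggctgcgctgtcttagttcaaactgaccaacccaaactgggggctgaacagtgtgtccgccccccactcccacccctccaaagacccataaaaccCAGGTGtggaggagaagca
Krt8 (GRCm38.p6, chr15:102004343-102004592, minus strand): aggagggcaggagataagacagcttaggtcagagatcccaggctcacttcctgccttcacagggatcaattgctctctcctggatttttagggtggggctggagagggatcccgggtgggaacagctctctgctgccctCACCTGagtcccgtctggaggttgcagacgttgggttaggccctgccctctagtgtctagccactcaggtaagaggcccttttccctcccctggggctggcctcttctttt
Elf3 (GRCm38.p6, chr1:135258473-135258722, minus strand): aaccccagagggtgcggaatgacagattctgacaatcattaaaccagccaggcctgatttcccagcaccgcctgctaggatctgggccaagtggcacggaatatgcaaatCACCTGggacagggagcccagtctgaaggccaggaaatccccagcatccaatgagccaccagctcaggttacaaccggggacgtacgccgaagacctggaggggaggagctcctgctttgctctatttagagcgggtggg
Epcam held 2 matches, whose first letters lay 187 and 19 bases before the start, Krt8 had 1 at 111 bases and Elf3 had 1 at 140 bases. Epcam and Krt8 differed between the fractions by 5.94 and 5.74, and Elf3 by 6.04.

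Of the 15 genes with the largest differences toward the epithelial fraction, 11 were on the list of alveolar type 2 markers. In order, the 15 largest were Hc, Slc34a2, Lamp3, Cxcl15, Sftpa1, Sftpc, Sftpb, Lyz1, Sftpd, Chil1, Slc26a9, Cftr, Napsa, Slco4c1 and Tfcp2l1, with differences from 7.55 down to 6.83. Slc26a9, Cftr, Slco4c1 and Tfcp2l1 were the 4 that are not on that list. Hc, which codes for complement component C5, stood at 3596, 4257, 3957 and 4063 CPM in the epithelial libraries and at 21.3, 37.1, 18.9 and 10.7 CPM in the mesenchymal libraries. Slc34a2, the phosphate transporter that serves surfactant turnover, stood at 12379, 12579, 11687 and 11953 against 77.5, 105, 67.3 and 33.0 CPM. Lamp3, a protein of the lamellar bodies that store surfactant, differed by 7.46 ± 0.31, and Napsa, a protease that processes surfactant proteins, by 6.93 ± 0.23. Slc26a9 and Cftr, both chloride channels, stood at 591 and 337 CPM in the epithelial fraction and at 3.53 and 1.76 CPM in the mesenchymal fraction. In each of these genes every epithelial library was above every mesenchymal one, as the rule for naming them required.

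Genes with the largest differences toward the mesenchymal fraction came from several cell types. In order, they were Hhip, Lum, Postn, Scara5, Col14a1, Dcn, Pdgfrb, Pi16, Cilp, Gucy1a1, Des, Adcy8, Myh11, Gucy1b1 and Thbs2, with differences from -6.64 to -5.21. Hhip, a decoy receptor for Hedgehog ligands that marks myofibroblasts, stood at 1129, 1133, 747 and 558 CPM in the mesenchymal libraries and at 8.52, 9.51, 7.86 and 5.17 CPM in the epithelial libraries. Lum and Dcn, small proteoglycans that bind collagen fibrils, stood at 158 and 1175 CPM against 1.29 and 23.5 CPM. Pi16, a marker of adventitial fibroblasts, differed by -5.48 ± 0.21, Pdgfrb, the receptor of pericytes and fibroblasts for PDGF-B, by -5.54 ± 0.10, and Myh11, the myosin of smooth muscle, by -5.27 ± 0.39. Gucy1a1 and Gucy1b1 code for the subunits of soluble guanylate cyclase, the receptor for nitric oxide, and differed by -5.28 ± 0.11 and -5.26 ± 0.13.

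The 30 genes were read again in the same fractions of mice that had been irradiated (4 and 4 libraries) and of irradiated mice that had received an anti-Ly6G antibody against neutrophils (4 and 4 libraries, called depleted). These comparisons share no library with the sham groups. In the irradiated libraries all 15 epithelial genes were called in the same direction, with differences of 5.84 to 6.72, and in the depleted libraries they were as well, with 5.91 to 7.11. All 15 mesenchymal genes were also called, with sizes of 4.76 to 5.82 in irradiated and 4.15 to 5.6 in depleted libraries. Of the genes at least 2-fold higher in the epithelial sham fraction, 98.5% were called in the same direction in irradiated mice, against 33.3% of all genes tested. The share for the mesenchymal fraction was 99.5%, against 37.0%. In depleted mice the shares were 97.7% and 98.7%, against 33.3% and 36.0% of all genes tested.

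**Figure D2:**
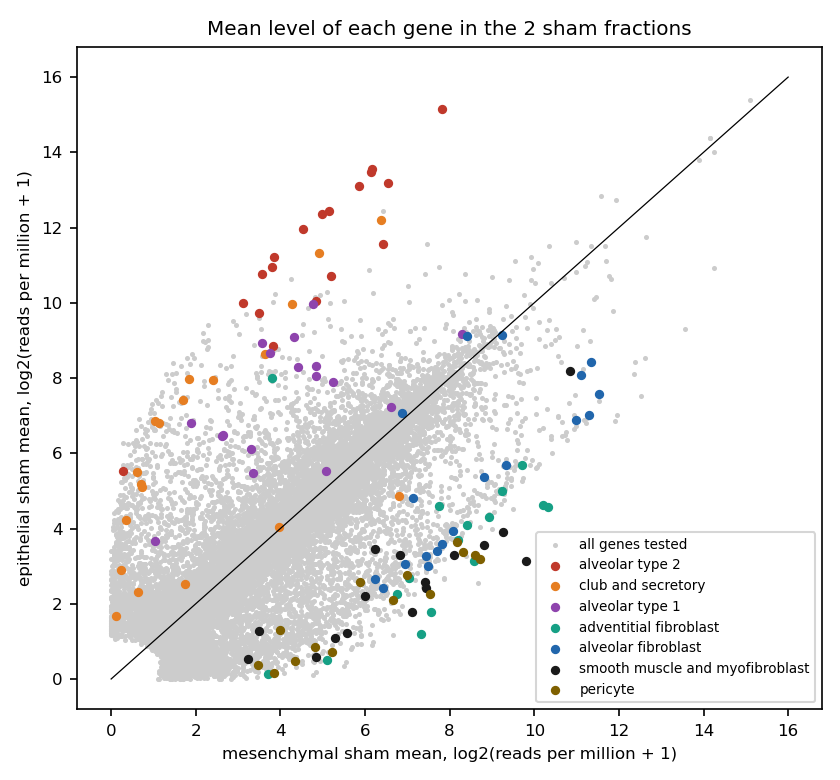
Mean level of every gene tested in the sham fractions, as log2(CPM + 1), mesenchymal on the horizontal and epithelial on the vertical axis, with a line of equal level and the members of 7 marker lists in colour. The alveolar type 2 genes form the upper edge, and alveolar type 1 genes reach the line of equal level. Pericyte, smooth muscle and adventitial genes form the lower edge, except the adventitial marker Dpp4, which lies above the line.

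Levels per kilobase of exon (RPKM, CPM divided by the exon length) allow genes to be set beside each other. Predicted, pseudogene, small RNA and mitochondrially encoded genes were left out of the order given here, so it is not an order of all genes. In the epithelial fraction the highest mean was that of Sftpc, at 34917 RPKM, followed by Scgb1a1, the club cell secretoglobin, at 9980.4, and Lyz2, a lysozyme of type 2 cells and macrophages, at 7019. The nuclear RNA Malat1 came next at 6165, followed by Sftpb, Lyz1, Sftpa1, Cxcl15, Slc34a2 and Cbr2. In the mesenchymal fraction Malat1 led at 4997, followed by Gsn, an actin-severing protein, at 3854, and Inmt, a methyltransferase abundant in lung fibroblasts, at 1849.6. Fos (1482), Mfap4 (1047), a microfibril protein, Gpx3 (954), Ccn1, Actb, Thbs1 and Btg2 completed the 10. None of the mesenchymal genes ranked here reached the level of Sftpc. The 50 most abundant genes of a library were counted with no gene left out. They took 30.4% to 30.6% of reads in the epithelial and 25.5% to 27.9% in the mesenchymal libraries.

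Alveolar type 2 markers were the most abundant of the epithelial lists. All 18 markers were higher there, each at least 16-fold, with a median difference of 7.24 against -0.03 over all genes tested, and together they took 10.7% of its reads. The summed level was 106749 ± 2551 CPM (SD, n = 4) in the epithelial and 818 ± 257 CPM in the mesenchymal fraction. Abca3, the lipid pump of lamellar bodies, differed by 5.14 ± 0.09, Etv5, a transcription factor that maintains type 2 cells, by 5.19 ± 0.07, and Lpcat1, which makes surfactant phosphatidylcholine, by 5.53 ± 0.08.

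Alveolar type 1 markers were higher in the epithelial fraction in all 17 cases, but only 5 reached 16-fold and the median difference was 3.52. Ager, the receptor RAGE of type 1 cells, stood at 1190.4, 1046, 876 and 861 CPM against 43.1, 29.1, 15.6 and 17.9 CPM, and Aqp5, a water channel, differed by 4.92 ± 0.10. Hopx stood at 98.7, 73.8, 51.8 and 46.7 CPM in the epithelial libraries and at 11.6, 8.45, 8.19 and 7.36 CPM in the mesenchymal ones. Pdpn, the podoplanin of type 1 cells that is also made by fibroblasts and lymphatic endothelium, overlapped between the fractions, with 62.7, 40.8, 41.3 and 35.9 CPM against 34.9, 37.4, 26.6 and 32.4 CPM (0.43 ± 0.17, adjusted p = 0.0398 with limma). Spock2 and Emp2 were likewise close, at 149.6 and 576 CPM in the epithelial and 96.8 and 310.3 CPM in the mesenchymal fraction. The calls of Pdpn and Spock2 each rested on single libraries: leaving out epithelial replicate 2 or mesenchymal replicate 1, 3 or 4 took both above the threshold (0.0512 to 0.1005 for Pdpn and 0.0797 to 0.0992 for Spock2), as did leaving out epithelial replicate 3 for Pdpn. The summed level of the list was 4737 ± 666 CPM in the epithelial and 653 ± 76.9 CPM in the mesenchymal fraction.

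Airway markers were present in the epithelial fraction at levels that varied between libraries. Of the 18 club and secretory markers tested, 16 were higher in the epithelial fraction and 1, Gsta3, a glutathione transferase, was higher in the mesenchymal fraction (-1.96 ± 0.14), while Chad did not pass the test (0.25). Of 21 ciliated markers tested 20 were higher, with small levels: Foxj1, the master regulator of motile cilia, stood at 10, 14.8, 17 and 15.8 CPM against 0.112, 0.371, 0 and 0.175 CPM. Tppp3 did not pass, at 67.7 and 70.5 CPM. Basal cell keratins were near the limit of counting, with Krt5 at 1.39, 2.15, 2.99 and 2.44 CPM in the epithelial libraries and Krt15 at a mean of 2.78 CPM. Of 12 neuroendocrine markers 1, Syp, a synaptic vesicle protein, passed the filter on low values, and it was higher in the mesenchymal fraction (-2.01 ± 0.14). Calca, which codes for a peptide that defines these cells, averaged 1.02 CPM in the epithelial and 0.0937 CPM in the mesenchymal fraction. None of the 3 tuft cell markers tested was higher in the epithelial fraction, and Pou2f3, the factor that specifies these cells, had no reads in any epithelial library and averaged 0.93 CPM in the mesenchymal fraction.

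The mesenchymal fraction held markers of 4 stromal cell types. Of 19 alveolar fibroblast markers 16 were higher there, 1 was higher in the epithelial fraction and 2 did not pass, with a summed level of 15895 ± 1928 CPM. Tcf21, a transcription factor of these cells, stood at 196, 175, 259 and 267 CPM against 8.14, 11.1, 13.2 and 11.8 CPM, and Npnt, a ligand of integrin alpha-8 in the basement membrane, differed by -2.99 ± 0.11. Of 16 adventitial fibroblast markers 15 were higher in the mesenchymal fraction, among them Dpt (-4.24 ± 0.07) and Clec3b (-4.32 ± 0.07), with a summed level of 6255 ± 374 CPM. All 16 smooth muscle and myofibroblast markers and all 14 pericyte markers were higher there, with summed levels of 4940 ± 1059 and 2002 ± 350 CPM. Acta2, smooth muscle actin, stood at 662, 552, 300.2 and 279.5 CPM, and Cspg4, the NG2 proteoglycan of pericytes, at 126, 113, 78.8 and 79.5 CPM.

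In the fibroblast lists 4 members did not follow the others. Dpp4, used as a marker of adventitial progenitor fibroblasts, stood at 257, 238, 254 and 266 CPM in the epithelial libraries and at 14.7, 17.3, 10.3 and 9.73 CPM in the mesenchymal libraries, a difference of 4.22 ± 0.16 toward the epithelium. Enpep, an aminopeptidase, was higher in the epithelial fraction (0.71 ± 0.08), and Plin2, the coat protein of lipid droplets that is used to mark lipofibroblasts, stood at 133 and 117 CPM and did not pass (0.17 ± 0.09). Ces1d, a lung carboxylesterase, did not pass either, at 585, 565, 592 and 514 CPM in the epithelial and 605, 425, 693 and 701 CPM in the mesenchymal libraries. Leaving out mesenchymal replicate 2 brought Ces1d to the mesenchymal side (adjusted p = 0.00871 with limma), and leaving out epithelial replicate 4 brought Plin2 to the epithelial side (adjusted p = 0.00692). The other 15 adventitial and 16 alveolar fibroblast markers were higher in the mesenchymal fraction.

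The purity of each fraction was described by reading the markers of one fraction in the other, as a percentage of their level where they belong. Alveolar type 2 markers in the mesenchymal libraries summed to 0.766% ± 0.241 (SD, n = 4) of their epithelial level, with 0.8%, 1.07%, 0.698% and 0.494% in the 4 libraries. Over the 18 markers the median was 0.635%, and 12 lay between 0.4% and 0.8%, among them the 4 surfactant protein genes. Above 2% stood Abca3, Etv5, Lpcat1 and the cathepsin Ctsh, the highest at 2.85%. General epithelial markers summed to 2.72% ± 0.505, with a median of 1.26% over markers, from 0.529% for Elf3 to 12.6% for Spint2. Club and secretory markers summed to 2.88% ± 0.223, with a median of 1.8%. Alveolar type 1 markers summed to 13.8% ± 1.62 with a median of 8.76%, and 3 of them, Pdpn, Emp2 and Spock2, stood at 50% or more. The ciliated list summed to 34.1% ± 2.52 and its median was 2.44%. Of its members 4 (Tppp3, Ccdc39, Ccno and Cfap43) stood at 50% or more, while 12 of 23 were under 3%. The 8 basal markers summed to 30.6% ± 8.49, with 4 of them at 50% or more. Without the markers at 50% or more, left out after their values were seen, the sum was 5.38% ± 1.73 for type 1 and 6.19% ± 1.37 for ciliated markers. For the 4 basal markers kept it was 0.741% ± 0.933, with an SD above the value. Krt17 and Aqp3 among them had no mesenchymal reads, so this value is near the limit of counting.

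In the opposite direction the general list stood higher. General mesenchymal markers in the epithelial libraries summed to 6.48% ± 0.248 of their mesenchymal level, with 6.36%, 6.82%, 6.5% and 6.24% in the 4 libraries and a median of 5.47% over markers. The lowest was Lum at 0.818% and the highest Col6a1 at 35.5%. Pericyte markers summed to 2.96% ± 0.139, with a median of 2.86% and no marker at 10% or more. Smooth muscle and myofibroblast markers summed to 7.56% ± 0.187 with a median of 2.95%, the highest being the myosin kinase Mylk at 15.8%. Adventitial markers summed to 7.57% ± 0.0878 with a median of 3.69%. That sum holds Dpp4, a surface peptidase, which stood at 257, 238, 254 and 266 CPM in the epithelial and 14.7, 17.3, 10.3 and 9.73 CPM in the mesenchymal libraries, and without it the sum was 3.51% ± 0.125. Alveolar fibroblast markers summed to 15.6% ± 0.565, a sum that holds Ces1d, Plin2 and Enpep at 50% or more, and their median was 6.45%. Without those 3 the sum was 8.34% ± 0.403. By both the sum and the median, the general mesenchymal list stood at a larger share of its own level in the other fraction than the general epithelial list did. Whether the fraction's own cells made these transcripts, or single sorted cells of the other kind, attached cells or free RNA carried them, was not tested. The percentages are thus not shares of foreign cells.

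**Figure D3:**
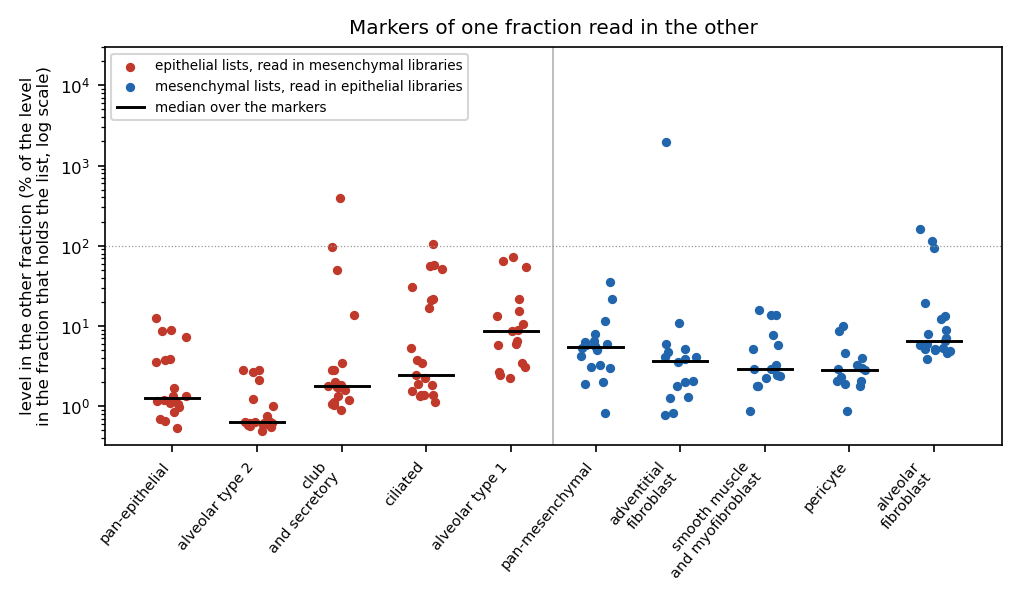
Level of each marker in the fraction that should lack it, as a percentage of its mean level in the fraction that holds the list (log axis, means of 4 sham libraries), with a bar at the median over markers. Type 2 markers gather near 0.6%, general mesenchymal markers near 5%, and single markers such as Gsta3 and Dpp4 pass 100%. Pifo and Sntn of the ciliated list were at 0 and are not drawn.

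The same percentages were computed in the libraries of the other mice. For type 2 markers they were 1.3% ± 0.336 in irradiated and 1.11% ± 0.201 in depleted mice, and for general epithelial markers 4.11% ± 0.500 and 4.03% ± 0.558. For general mesenchymal markers they were 7.31% ± 0.466 and 7.34% ± 0.248, and for pericyte markers 4.18% ± 0.715 and 4.55% ± 0.386. Of the 11 lists 10 stood above their sham mean in irradiated and 9 in depleted mice. The smooth muscle list was below it in both, at 7.44% and 7.12%, and the ciliated list in depleted mice, at 29.7%. The adventitial list, at 7.88% and 7.63%, was close to its sham mean of 7.57%. The order of type 2 below general epithelial below general mesenchymal markers was the same in the 3 treatments. The differences between treatments were not tested.

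The marker lists of the cells that the sort removes had reads in both fractions, at levels that differed between the lists. Ptprc, which codes for CD45, stood at 7.59, 11, 4.87 and 2.64 CPM in the epithelial and 23.1, 35.3, 15.3 and 11.3 CPM in the mesenchymal libraries (-1.58 ± 0.47, adjusted p = 0.0173). The summed level of the 15 leukocyte markers was 49.9 ± 14.8 CPM in the epithelial and 78.4 ± 37.6 CPM in the mesenchymal fraction. Of 13 tested 8 were higher in the mesenchymal fraction, and 3 in the epithelial, namely the phosphatase Ptpn6 (1.77), Hcls1 (0.70) and Ikzf1 (0.84). Pecam1, which codes for CD31, stood at 16, 19.4, 15.7 and 11.6 CPM in the epithelial and 33.1, 52.2, 26.9 and 16.6 CPM in the mesenchymal libraries. Its libraries overlapped, and its adjusted p of 0.04 with limma was lost when genes of low level were kept (0.059), when libraries were ranked (0.0603), when the 50 most abundant genes were left out of the sum (0.0511), and when epithelial replicate 1, 3 or 4 or mesenchymal replicate 1 or 3 was left out (0.0649 to 0.101). Blood endothelial markers summed to 236 ± 31.5 and 483 ± 146 CPM, and of 20 tested 15 were higher in the mesenchymal and 1 in the epithelial fraction. Eng, the TGF-beta co-receptor endoglin, stood at 10.9 CPM in the epithelial and 116 CPM in the mesenchymal fraction (-3.33 ± 0.21), and Tek, the angiopoietin receptor, differed by -2.21 ± 0.14. The 1 gene higher in the epithelial fraction was Esam, an adhesion molecule of endothelium and other cells (2.42 ± 0.26). Cdh5, the endothelial cadherin, stood at 18.2 and 40.2 CPM and did not pass the test, although it did without mesenchymal replicate 4 (adjusted p = 0.00682 with limma). Lymphatic endothelial markers summed to 6.88 ± 1.07 and 15.7 ± 3.95 CPM, and glial markers to 16.7 ± 1.08 and 21.3 ± 1.92 CPM. Globin RNA of red cells was present, with Hbb-bs at 49.8, 80.2, 25 and 23.5 CPM in the mesenchymal and 2.41, 4.19, 1.96 and 0.0976 CPM in the epithelial libraries (-3.87 ± 0.59).

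Of 16 macrophage markers 8 passed the filter on low values, of which 2 were higher in the epithelial fraction, 1 in the mesenchymal fraction and 5 did not pass the test. The summed level of the 16 was 95.2 ± 16.6 CPM in the epithelial and 62.6 ± 24.6 CPM in the mesenchymal fraction. Csf1r, the receptor for CSF1 that marks macrophages, stood at 33.3, 27.7, 21.3 and 19.3 CPM in the epithelial and 5.59, 7.80, 5.42 and 3.77 CPM in the mesenchymal libraries (1.99 ± 0.20). Mpeg1, a pore-forming protein of macrophages, differed by 1.34 ± 0.23. Among 7 lymphocyte markers tested, 4 were higher in the mesenchymal fraction and 2 did not pass. The 1 higher in the epithelial fraction was Cd79b, a subunit of the B cell receptor (2.51 ± 0.20). The lymphocyte list summed to 24.1 ± 6.14 CPM in the epithelial and 33.1 ± 14.6 CPM in the mesenchymal fraction. The chemokine Ccl6 was higher in the mesenchymal fraction (-0.99 ± 0.32), a call lost with all 24 libraries in 1 fit (adjusted p = 0.0676 with limma) and in irradiated libraries (0.213). Marco averaged 0.0231 CPM, C1qa 0.0974 CPM and Adgre1 0.395 CPM in the epithelial fraction, and these 3 genes did not pass the filter. Cd68 averaged 13.9 and 12.7 CPM and Mrc1 3.52 and 7.75 CPM, and neither passed the test. Cd79a, the partner of Cd79b, stood at 1.55 and 2.45 CPM and did not pass, although it did toward the mesenchymal fraction without epithelial replicate 2 (adjusted p = 0.0187 with limma) or mesenchymal replicate 3 (0.0475). The neutrophil list had 12 markers, and of 3 tested 2 were higher in the mesenchymal and 1, Ltf, in the epithelial fraction. Ltf, the iron-binding lactoferrin known from neutrophil granules and airway glands, stood at 25.8, 31.0, 207 and 157 CPM in the epithelial libraries. The neutrophil genes S100a8 and Retnlg averaged 0.255 and 0.328 CPM there. The part of leukocyte, endothelial and erythroid RNA in the other differences was not tested.

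The 4 libraries of a fraction were not alike in their airway and stromal genes. Summed club and secretory markers were 7333, 7407, 12536 and 11891 CPM in epithelial replicates 1 to 4. Bpifa1, a secreted airway defence protein, stood at 65.6, 88.8, 427 and 414 CPM, Muc5b, an airway mucin, at 109, 98.4, 362 and 416 CPM, and Scgb3a1 at 35.4, 46.3, 185 and 175 CPM. Replicates 3 and 4 were thus above replicates 1 and 2 in these genes, as they were in Ltf and in Reg3g (6.29, 6.04, 31.3 and 26.9 CPM). In the mesenchymal libraries the smooth muscle sum was 6060, 5624, 4116 and 3959 CPM and the pericyte sum 2369, 2229, 1742 and 1666 CPM, whereas the alveolar fibroblast sum was 15364, 13442, 16941 and 17833 CPM. Myh11 stood at 897, 844, 354 and 369 CPM in these libraries and Msln, the mesothelin of mesothelial cells, at 30.7, 13.2, 7.08 and 6.75 CPM. Leukocyte markers in the mesenchymal libraries summed to 82.9, 129, 58.3 and 43.2 CPM. Mesenchymal replicates 1 and 2 were the higher ones in muscle, pericyte, mesothelial and leukocyte genes. The part of the leukocyte genes in these differences was not tested, and the labels give no batch. Of 11 mesothelial markers 5 were higher in the mesenchymal fraction and 6 did not pass, Msln among them.

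**Figure D4:**
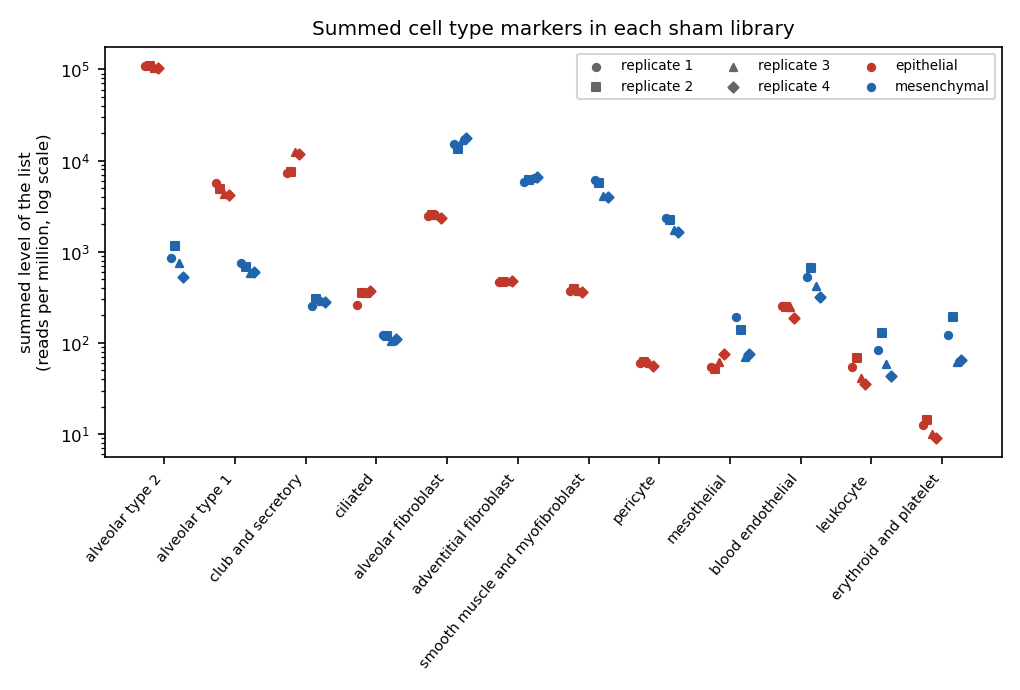
Summed CPM of 12 cell type lists in each sham library (log axis), with a symbol for each replicate number. Type 2 markers sum to 130.5 times the mesenchymal level in the epithelial libraries, and the club sum of epithelial replicates 3 and 4 lies above that of replicates 1 and 2.

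Genes of epithelial junctions were higher in the epithelial fraction without exception among those tested. Of the 29 junction genes tested, all 29 were higher in the epithelial fraction, with a median of 3.58. All 12 tight junction genes passed, with Cldn18, the claudin of alveolar cells, at 769 against 10.2 CPM (6.18 ± 0.26), Tjp3 at 5.25 and Ocln at 4.31. Desmosomal Dsp differed by 4.18 ± 0.20, and Crb3, which sets the apical side, by 4.61 ± 0.13. The catenins, which cadherins of both layers bind, were higher by less than the cadherin itself, Ctnnd1 by 0.51 ± 0.05, Ctnna1 by 0.66 ± 0.05 and Ctnnb1 by 2.01 ± 0.05. Of 10 cadherins tested, Cdh1 and Cdh16 (5.55) were higher in the epithelial and Cdh11 (-3.89), Cdh2 (-3.47) and 4 others in the mesenchymal fraction. Cdh11 stood at 748, 623, 904 and 856 CPM in the mesenchymal libraries against 44.3, 51.0, 61.7 and 49.4 CPM.

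Integrins and the basement membrane were divided between the layers. Of 24 integrin genes tested 6 were higher in the epithelial and 15 in the mesenchymal fraction. Itgb6, whose protein pairs with alpha-v to activate latent TGF-beta, stood at 70.2, 59.9, 60.8 and 50.3 CPM against 5.03, 2.13, 2.10 and 1.93 CPM, and Itga3, a laminin receptor, differed by 1.86 ± 0.10. Itga8, the receptor for nephronectin, stood at 2155, 1643, 2207 and 2111 CPM in the mesenchymal libraries and differed by -4.10 ± 0.09. The laminin chains Lama3 and Lamb3, known from the anchorage of epithelia, were higher in the epithelial fraction by 3.93 ± 0.24 and 3.78 ± 0.17. Lama5, the chain of most adult basement membranes, differed by 0.63 ± 0.07, while 6 laminin chains, among them Lama2 (-4.22), Lama4 (-4.30) and Lamb1 (-3.23) and the linker Nid1 (-4.36) were higher in the mesenchymal fraction. Of 26 basement membrane genes tested 8 were higher in the epithelial and 18 in the mesenchymal fraction. Type IV collagen was split between them. Col4a3 and Col4a4, which are among the chains of the specialised alveolar membrane, were higher in the epithelial fraction (3.22 and 2.70). Col4a1, Col4a2, Col4a5 and Col4a6 were higher in the mesenchymal fraction (-1.01, -0.50, -1.53 and -1.13).

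The interstitial matrix belonged to the mesenchymal fraction. Of 30 genes tested 29 were higher there, 18 of them at least 16-fold, with a median of -4.15, and together the 31 members took 4.39% of mesenchymal and 0.296% of epithelial reads. Col3a1, the chain of type III collagen, stood at 5847 against 182 CPM, Fn1, fibronectin, at 6245 against 368 CPM, and Postn, a matricellular protein, at 409 against 4.92 CPM. The exception was Thbs3, a thrombospondin, which was higher in the epithelial fraction (0.56 ± 0.06) and was not called in irradiated or depleted mice. Col11a1, a minor fibrillar collagen, did not pass the filter on low values, with 0.335, 13.1, 8.97 and 9.47 CPM in the mesenchymal libraries, where replicate 1 stood apart. Of 21 elastic fibre genes 20 were higher in the mesenchymal fraction, including Eln (-4.30), all 5 lysyl oxidases, which cross-link collagen and elastin, and all 4 latent TGF-beta binding proteins. Fbn2, the fibrillin of the developing lung, was the exception at 20.5 against 2.69 CPM (2.54 ± 0.14).

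Transcription factors followed the fraction they are known from, with few exceptions. Of 23 epithelial factors tested 21 were higher in the epithelial fraction. Nkx2-1, which specifies lung epithelium, stood at 324, 314, 339.8 and 351 CPM against 2.57, 3.90, 2.44 and 1.58 CPM, and Foxa1, Foxa2 and Cebpa differed by 5.81, 4.99 and 4.41. Sox2, a factor of the airways, stood at 4.07, 6.14, 7.00 and 6.64 CPM in the epithelial libraries. Sox9, which marks the distal buds of the developing lung and also cartilage, was higher in the mesenchymal fraction (5.25, 10.2, 6.31 and 7.63 against 0.278, 0.307, 0.683 and 0.39 CPM), and Trp63 of basal cells did not pass (-0.14). All 26 mesenchymal factors were higher in the mesenchymal fraction. Tbx4 and Tbx5, which pattern lung mesenchyme, differed by -4.35 ± 0.10 and -4.45 ± 0.11, and Foxf1, a target of Hedgehog signals, by -3.47 ± 0.16. Snai1 and Snai2, repressors of the same E-boxes as Zeb1 and Zeb2, differed by -3.04 ± 0.14 and -3.21 ± 0.13. All 14 Hox genes tested, 7 of the Hoxa and 7 of the Hoxb cluster, were higher in the mesenchymal fraction, with Hoxa5, which is needed for lung development, at 51.2, 44.6, 47.3 and 44.8 CPM against 2.50, 2.76, 2.48 and 2.73 CPM.

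In FGF and HGF signalling 6 of 7 ligand genes and 3 of 5 receptor genes were higher in the mesenchymal fraction, and 1 ligand and 2 receptors in the epithelial fraction. Fgf10, which drives branching and maintains distal epithelium, stood at 81.1, 68.2, 77.6 and 69.5 CPM in the mesenchymal and 4.63, 6.14, 5.21 and 5.17 CPM in the epithelial libraries, and Fgf7, the keratinocyte growth factor, differed by -3.83 ± 0.11. Fgfr2, whose epithelial isoform binds these ligands, stood at 1190.1, 1052, 984 and 1013 CPM in the epithelial libraries against 52.8, 49.7, 37.6 and 36.1 CPM (4.57 ± 0.12). The values are for all isoforms of the gene. The other FGF receptors, Fgfr1 (-3.78), Fgfr3 (-1.92) and Fgfr4 (-4.29), were higher in the mesenchymal fraction. Hgf was higher in the mesenchymal fraction (-3.46 ± 0.12) and its receptor Met in the epithelial fraction (4.94 ± 0.19). Fgf1 was the ligand that went the other way, at 212, 215, 201 and 209 CPM in the epithelial libraries (3.05 ± 0.06).

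In the Hedgehog, PDGF and EGF families the fraction of a ligand and that of its receptor were read in the same way. Shh stood at 17.2, 16.1, 19.8 and 19.9 CPM in the epithelial and 0.335, 0.186, 0.111 and 0.0877 CPM in the mesenchymal libraries (4.03 ± 0.14), whereas the receptor Ptch1 (-1.69), the transducer Smo (-1.62) and the targets Gli1 (-3.92) and Hhip (-6.64) were higher in the mesenchymal fraction. Pdgfa and Pdgfb were higher in the epithelial fraction (1.07 ± 0.11 and 2.16 ± 0.26), their receptors Pdgfra and Pdgfrb in the mesenchymal fraction (-4.27 and -5.54), and the ligands Pdgfc and Pdgfd in the mesenchymal fraction (-1.76 and -2.88). Of 12 EGF genes 6 were higher in the epithelial and 3 in the mesenchymal fraction. Areg, the ligand amphiregulin, stood at 43.2, 31.2, 47.5 and 49.6 CPM in the epithelial libraries against 0.559, 0.278, 0.221 and 0.175 CPM (5.05 ± 0.16), and Tgfa differed by 2.58 ± 0.13. Among the receptors Erbb3 (5.14) and Erbb2 (1.14) were higher in the epithelial fraction and Egfr was higher in the mesenchymal fraction, with 142, 159.9, 140.3 and 154 CPM against 65.4, 62.8, 63.8 and 63.0 CPM.

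Of 15 PDGF and VEGF genes 4 were higher in the epithelial and 10 in the mesenchymal fraction. The angiogenic ligand Vegfa differed by 0.40 ± 0.10, Vegfd by -4.17 ± 0.09 and Angpt1, which stabilises vessels, by -4.08 ± 0.09.

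Of 34 Wnt genes tested 26 were higher in the mesenchymal and 8 in the epithelial fraction. Among the ligands, Wnt2 (-4.01), Wnt5a (-4.12) and 8 others, R-spondins included, were higher in the mesenchymal fraction, and Wnt3a, Wnt7a and Wnt7b in the epithelial fraction (2.26, 2.30 and 2.90). All 5 inhibitors tested, including Sfrp1 (-3.68), Dkk3 (-4.06) and Wif1 (-3.36), were higher in the mesenchymal fraction. The Frizzled receptors were divided, with Fzd5 (2.37 ± 0.09) and Fzd6 (2.85 ± 0.18) higher in the epithelial and Fzd1 (-1.82 ± 0.08) and Fzd4 (-2.94 ± 0.11) higher in the mesenchymal fraction. Of the target genes, Axin2 stood at 96.4, 90.1, 124 and 115 CPM in the mesenchymal and 40.5, 42.1, 44.0 and 39.8 CPM in the epithelial libraries, and Nkd1 was higher in the epithelial fraction (2.10 ± 0.10). In Notch signalling the ligands Jag1 and Jag2 were higher in the epithelial fraction (1.88 and 2.52), and Notch3, the receptor of mural cells, and its known target Heyl in the mesenchymal fraction (-4.51 and -4), while Notch2 did not pass (-0.04).

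Of 20 BMP and TGF-beta genes tested 4 were higher in the epithelial and 15 in the mesenchymal fraction. Among the ligands Bmp5 (-1.86), Gdf10 (-4.07) and Tgfb3 (-2.10) were higher in the mesenchymal and Bmp2 (1.07) in the epithelial fraction, and Bmp4 did not pass, at 76.3 and 74.4 CPM. Among the receptors Tgfbr3, the co-receptor betaglycan, stood at 617, 631, 603 and 626 CPM in the mesenchymal and 24.2, 30.2, 27.0 and 23.3 CPM in the epithelial libraries. The antagonist Fst, follistatin, was higher in the mesenchymal fraction (-3.06). Nog and Grem1, further antagonists, had no reads in any epithelial library and averaged 0.674 and 1.14 CPM in the mesenchymal fraction, below the filter on low values.

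**Figure D5:**
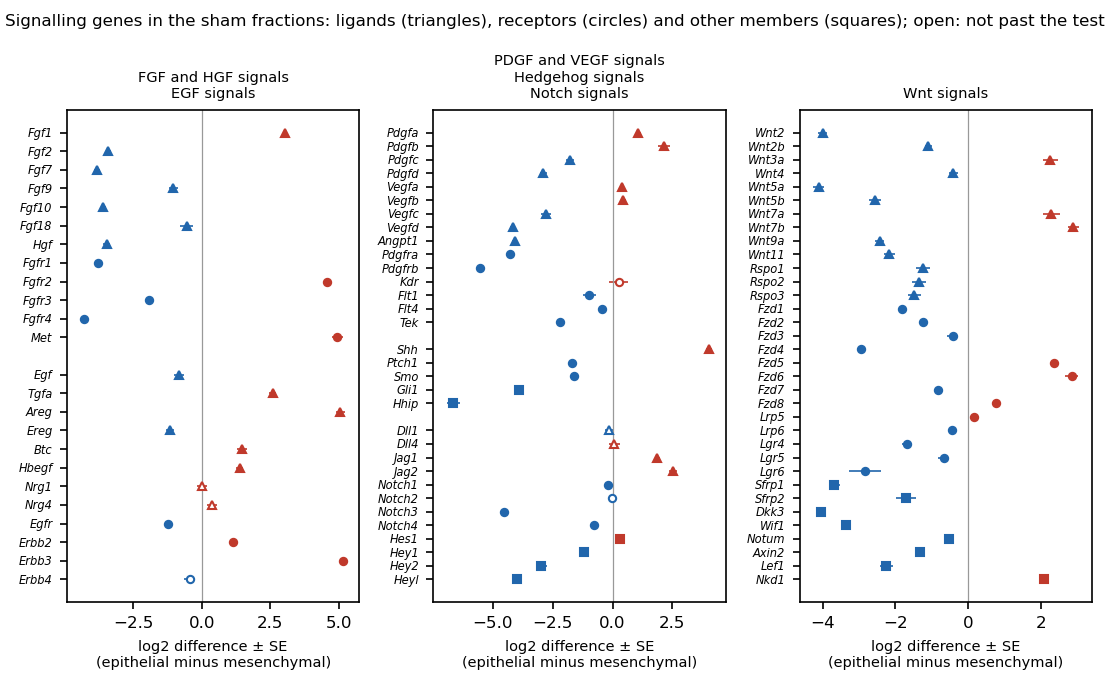
Difference between the sham fractions in log2(CPM + 1), epithelial minus mesenchymal, with its standard error (limma, 4 and 4 libraries), for members of 6 signalling lists. Triangles are ligands, circles receptors and squares other members. Fgf10, Fgf7 and Hgf lie on the mesenchymal side and Fgfr2 and Met on the epithelial side, while Shh lies on the epithelial side and Ptch1, Gli1 and Hhip on the mesenchymal side.

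Metabolic and transport genes of surfactant-making cells were higher in the epithelial fraction. Of 27 lipid synthesis genes 24 were higher, including all 12 sterol genes. Fasn, fatty acid synthase, stood at 3279.9, 3015, 2931 and 2922 CPM against 163, 178, 181 and 177 CPM, and Scd1, the stearoyl desaturase, differed by 6.02 ± 0.16. Elovl6, which elongates palmitate, went the other way (-2.80 ± 0.15), as did Fads2 (-0.85) and Chpt1 (-0.61). All 6 sodium transport genes were higher, among them the channel subunits Scnn1a (4.66), Scnn1b (4.24) and Scnn1g (4.07), which clear fluid from the alveolus. The water channel Aqp1, known from endothelium, was higher in the mesenchymal fraction (112, 112, 82.9 and 83.9 against 19.7, 17.5, 14.4 and 13.5 CPM).

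Immune genes were divided by pathway. All 7 genes of MHC class II presentation were higher in the epithelial fraction: Cd74, the invariant chain, stood at 1966, 1565, 1746 and 1688 CPM against 38.9, 55.0, 28.6 and 17.9 CPM, H2-Aa and H2-Ab1 differed by 4.76 ± 0.22 and 4.72 ± 0.27, and Ciita, the class II transactivator, by 3.21 ± 0.14. Of the leukocyte markers 3 of 13 tested were higher in the epithelial and 8 in the mesenchymal fraction, and of the macrophage markers 2 and 1 of 8. The part of such cells in the class II levels was not tested. Of 9 class I genes 2 were higher in the epithelial and 3 in the mesenchymal fraction, with B2m at -1.29 ± 0.06. Of 14 complement genes tested 11 were higher in the mesenchymal fraction. C3, the central component, stood at 2341, 2691, 2374 and 2823 CPM against 496, 514, 501 and 510.2 CPM, and C4b (-4.44), C1s1 (-4.20) and the C1 inhibitor Serping1 (-4.42) were higher there too. The terminal components were split, since Hc and C6 (4.56 ± 0.08) were higher in the epithelial and C7 (-3.90 ± 0.10) in the mesenchymal fraction.

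Genes known to respond to tissue digestion were mostly higher in the mesenchymal fraction. The 10 immediate early genes summed to 9955 CPM in the epithelial and 19503 CPM in the mesenchymal fraction. The 5 heat shock genes stood much lower, at 193 and 409 CPM. Of 15 immediate early and heat shock genes 14 were higher in the mesenchymal fraction and the other, Jun, did not pass, at 1614 and 1660.3 CPM. Fos stood at 3309, 3319, 3896 and 3422 CPM in the mesenchymal and 1580.1, 1633, 1741 and 1747 CPM in the epithelial libraries, and Hspa1a, an inducible chaperone, differed by -1.70 ± 0.08. Of 12 mitochondrially encoded genes tested 10 were higher in the epithelial fraction, with mt-Co1, a subunit of cytochrome oxidase, at 6448, 7032, 7726 and 8258 CPM against 3494, 3185, 2886 and 2621 CPM. mt-Co3 did not pass, with 63.8, 0.102, 58.7 and 68.3 CPM in the epithelial and 0.112, 64.3, 0.111 and 0.0877 CPM in the mesenchymal libraries, which scattered from library to library within both fractions. The share of reads in this list was 1.91% in the epithelial and 0.794% in the mesenchymal fraction. The part of these genes in the other differences was not tested.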

How the data were processed

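RNA of sorted lung cells was sequenced after ribosomal RNA depletion (total RNA, KAPA HyperPrep with RiboErase, per the labels' protocols). The authors deposited 1 table of normalised counts per fraction, a signal unit in which gene counts were divided by 1 factor per library. All positive values were whole multiples of 1 step per library (100% within 0.001), so whole reads were recovered. Per the submitters' processing notes cutadapt 1.5, STAR 2.2.2a, SAMtools 1.8, RSEM 1.3.0, DESeq2 and GRCm38 were used, in roles that are not given in the sources used here. Lengths and positions came from GENCODE M21, which matched 48349 of 48795 identifiers.

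The tables were joined by identifier and each column was divided by its own sum. Genes with at least 1 CPM in at least 4 of the 8 libraries were tested with limma 3.58.1 (R 4.3.3, trend and robust options) on log2(CPM + 1), with Benjamini-Hochberg adjustment over all genes tested and no pairing, since the labels tie no numbers to mice. Unit and design allowed edgeR 4.0.16 and DESeq2 1.42.0 on recovered reads as alternatives, beside other pseudocounts, filters and scalings, single libraries left out and the irradiated and depleted libraries. The series' design gives 4 mice per treatment but names no mouse for a library, so p-values measure the spread between libraries. The fit was tested on simulated data.

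The markers, gene lists and tests were chosen with earlier results of these data known. Named are the 6 markers and the sort antigens, per direction the 15 genes with the largest difference among called genes without overlap and with a mean of at least 50 CPM, the 10 most abundant genes per fraction, and members of the lists. The 15 and the 10 were taken without predicted, pseudogene, small RNA and mitochondrially encoded genes, and without genes that lack an annotated type. Promoter sequences came from RefSeq, and the mice are of another strain than the reference. Genes of near-identical copies may share reads. A few list members are not reported here by name.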

Additional observations from a re-analysis of the deposited data

Results flagged for a closer look

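In 6 of 144 groups of 4 libraries the highest or lowest library stood so far from the nearest of the others that its gap, as a share of the whole range, passed Dixon's critical value, which chance passes in about 1 of 20 groups. In the epithelial libraries the lowest Cdh1 level was 819 CPM against a median of 834, and the lowest Epcam level was 107 CPM against 110.3, spreads far smaller than the distance to the mesenchymal libraries. The highest Tfcp2l1 level was 512 CPM against a median of 495, and the highest summed level of general epithelial markers was 2947 CPM against 2761. The lowest summed level of blood endothelial markers was 189 CPM against a median of 249.5, and that of lymphatic markers 5.28 CPM against 7.33.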

How the results depend on the processing

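Of 249 named genes tested, 19 lost and 12 gained their call under at least 1 of 22 alternatives, most often with libraries of other mice. The sign turned for 5 genes, in each case without a call: Actb with ranks (0.0303) and in depleted mice (0.14), and in depleted mice Pdpn (-0.25), Thbs3 (-0.34), Mki67 (-0.11) and Top2a (-0.0405). The number of genes at least 2-fold higher fell to 1673 (epithelial) and 2082 (mesenchymal) with a pseudocount of 5, which shrinks differences by construction. At least 16-fold higher were 147 and 82 genes with that pseudocount, 814 and 747 with edgeR and 823 and 766 with DESeq2 on recovered reads, which use no such pseudocount. In irradiated libraries 155 genes were at least 16-fold higher in the mesenchymal fraction, and the cause was not tested. The other counts stayed within 1.5 times, and the epithelial share of all calls ran from 46.8% to 52.7%.

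Read as a median over markers, the level in the other fraction was 1.26% for general epithelial, 8.76% for type 1, 1.8% for club, 2.44% for ciliated, 5.47% for general mesenchymal, 6.45% for alveolar fibroblast, 3.69% for adventitial and 2.95% for smooth muscle markers. Without the 50 most abundant genes of each fraction in the sum it was 6.85% for general mesenchymal, 16.6% for alveolar fibroblast, 8.01% for adventitial, 8.01% for smooth muscle and 3.14% for pericyte markers, and with TMM scaling 7.75% for adventitial and 7.76% for smooth muscle markers. Without the markers at 50% or more, an alternative chosen after seeing the data, it was 5.38% for type 1, 1.61% for club and 6.19% for ciliated markers. It was 8.34% for alveolar fibroblast and 3.51% for adventitial markers. For basal markers it was 0.741% ± 0.933 (SD, n = 4), near the limit of counting. Leaving out 1 library gave 7.38% to 7.74% for adventitial, 14.9% to 16.3% for alveolar fibroblast, 2.66% to 3.18% for club, 6.28% to 6.8% for general mesenchymal, 2.81% to 3.16% for pericyte and 7.09% to 8.17% for smooth muscle markers.

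With the replicate number as a block, 5674 genes were higher in the epithelial and 6231 in the mesenchymal fraction. Epithelial and mesenchymal libraries of the same number correlated in their deviations from the group means at r of -0.0234, 0.0839, 0.109 and -0.0252 across genes, and not every library correlated best with its own number, so the numbers were not taken as pairs. At these depths levels below 0.256 to 0.335 CPM in a library cannot be told from 0.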

Other observations

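Genes of retinoic acid handling divided mostly toward the mesenchymal fraction, where 8 of 10 tested were higher. Aldh1a1, which makes retinoic acid from retinal, stood at 703, 582, 775 and 767 CPM in the mesenchymal and 118, 135, 238 and 231 CPM in the epithelial libraries, and Aldh1a3 differed by -3.37 ± 0.16 (limma, on the log2(CPM + 1) scale). Rdh10, which makes retinal, was higher in the epithelial fraction (1.3 ± 0.08). Rdh10 was the 1 of 4 synthesis genes listed that was higher there, and the other 3 were higher in the mesenchymal fraction. Whether the retinal step as a whole differed between the fractions was not tested.

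Of 13 proliferation genes tested 8 were higher in the epithelial and 2 in the mesenchymal fraction. Mki67, a marker of cycling cells, stood at 23.2, 17.9, 23.7 and 22.4 CPM in the epithelial and 4.69, 7.98, 4.76 and 3.77 CPM in the mesenchymal libraries, and Top2a differed by 1.89 ± 0.22. Neither difference was called in irradiated mice (adjusted p = 0.55 for Mki67 and 0.167 for Top2a) or in depleted mice (0.728 and 0.899). Ccnb2, Plk1 and Rrm2 did not pass, and Aurka and Cenpa were higher in the mesenchymal fraction (-0.39 and -1.15). The call of Aurka was lost when any library but mesenchymal replicate 1 was left out (adjusted p of 0.0615 to 0.14), and Ccnb2 was called without mesenchymal replicate 1 (0.0474) or 4 (0.0486).

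Of 16 genes widely used as references 8 were higher in the epithelial and 5 in the mesenchymal fraction. Eef1a1 differed by 0.63 ± 0.06, Gapdh by 0.71 ± 0.07 and Tubb5 by -1.14 ± 0.06, while Rpl13a, at 225 and 218 CPM, did not pass. Of 366 long intergenic RNAs tested, 109 (29.8%) were higher in the epithelial and 128 (35.0%) in the mesenchymal fraction. These shares were near, and below, those of all genes tested (34.2% and 37.3%). Ptgs2os2 stood at 22.7 ± 2.62 against 0.462 ± 0.206 CPM (SD, n = 4), and Meg3 at 157 ± 32.4 CPM in the mesenchymal against 11.5 ± 0.947 CPM in the epithelial fraction. These intergenic RNAs were chosen after their values were seen.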
